A study of Mus musculus with 14 samples.

Results

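The genes described here are 34 transcription factors that mark or specify classes of spinal interneurons, out of 19215 genes with RNA-seq values in mouse spinal cord. They were taken by gene symbol from the gene tables of both RNA-seq libraries, where 33 were found under their current symbol and Tfap2b under its older symbol Tcfap2b, and their cassette exons were taken by the same gene number. The study compared RNA bound by the neuronal RNA-binding protein NOVA in motoneurons (MNs) with that bound in the whole spinal cord (WSC) by HITS-CLIP, in which RNA crosslinked to a protein by ultraviolet light is immunoprecipitated and sequenced. For WSC RNA-seq, poly(A)-selected RNA came from 1 male and 1 female mouse that carried the Tg(SOD1)2Gur/J transgene (SOD1 WT) on a mixed B6/SJL background at 12 weeks of age. For MN CLIP, 4 libraries came from Chat:GFP-Nova line #6 and 4 from line #17, hemizygous C57BL/6 mice 3 months old, each library from the pooled cords of several mice and made with anti-GFP antibodies. For WSC CLIP, 4 libraries came from cords of wild type C57BL/6 mice of the same age with anti-Nova serum. The tagged protein was expressed under the Chat promoter, which is active in cholinergic neurons. Cell type, antibody, tagged protein and pooling differed together between MN and WSC CLIP and cannot be told apart. By the labels, the 5′ linker was long in the 4 WSC libraries and in replicates 3 and 4 of each MN line. It was short in replicates 1 and 2 of each line, so short linkers occurred in MNs only.

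During development, domains of progenitors along the dorsoventral axis of the cord give rise to cardinal classes of interneurons, each known for a code of homeodomain, paired-box, forkhead and zinc-finger factors. Some of these factors act only in dividing progenitors or in newly born neurons, while others stay on in the adult dorsal horn and ventral horn. Several also serve motoneurons: Lhx3 and Lhx4 act in their specification, Foxp1 in the columns that innervate the limbs, and the Onecut factors in early motoneurons. NOVA binds RNA at clusters of YCAY tetramers, where Y is a pyrimidine, and is known as a regulator of splicing in neurons.

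The male and female RNA-seq libraries held 72006019 and 65625173 reads on genes, and the CLIP libraries 44901 to 606074 tags (unique reads assigned to 1 gene) in MNs against 1587401 to 4434749 in WSC. Markers of cholinergic motoneurons were higher in MN CLIP (3 of 3 tested), with Chat at 3.09 ± 0.13 above WSC on the log2 scale, while 5 of 5 markers of inhibitory neurons and Slc17a6, the vesicular glutamate transporter of spinal excitatory neurons, were lower, with Slc6a5, the glycine transporter of inhibitory neurons, at -4.26 ± 0.15. Slc17a6 was the only 1 of 3 excitatory markers tested. When genes with few tags were tested as well, Slc17a8 (-1.23, edgeR adjusted p = 0.465) and Slc17a7 (1.28, adjusted p = 0.171) did not pass. Of the motoneuron list, Mnx1 had 0 tags in MNs and 3 in WSC. Tags on 4 oligodendrocyte markers summed to between 509 and 1469 CPM (tags on a gene scaled to all tags on genes in the library) in MN libraries and between 1373 and 1659 in WSC, and those on 4 astrocyte markers to between 961 and 1960 in MNs and between 2420 and 3054 in WSC. The part of RNA from these cells in the results below was not tested. In RNA-seq, the 5 inhibitory markers summed to 270 and 256 RPKM and the 7 motoneuron markers to 134 and 167 in the male and female library. The 7 markers of dorsal root ganglion neurons summed to 28.0 and 57.0 RPKM, of which Calca, also made by motoneurons, gave 26.7 and 55.5.

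In the adult cord, 20 of the 34 factors had a mean of at least 1 RPKM (reads per kilobase of exon, scaled to the reads of the library) and 14 were below it. The share was 58.8%, against 62.1% of all genes in the table. The median over the factors was 1.29 RPKM and that over all genes 3.46 RPKM, and 29.3% of all genes lay above Pax2, the factor with the highest level. A level in cord RNA cannot tell fewer cells of a class from less RNA per cell.

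**Figure D1:**
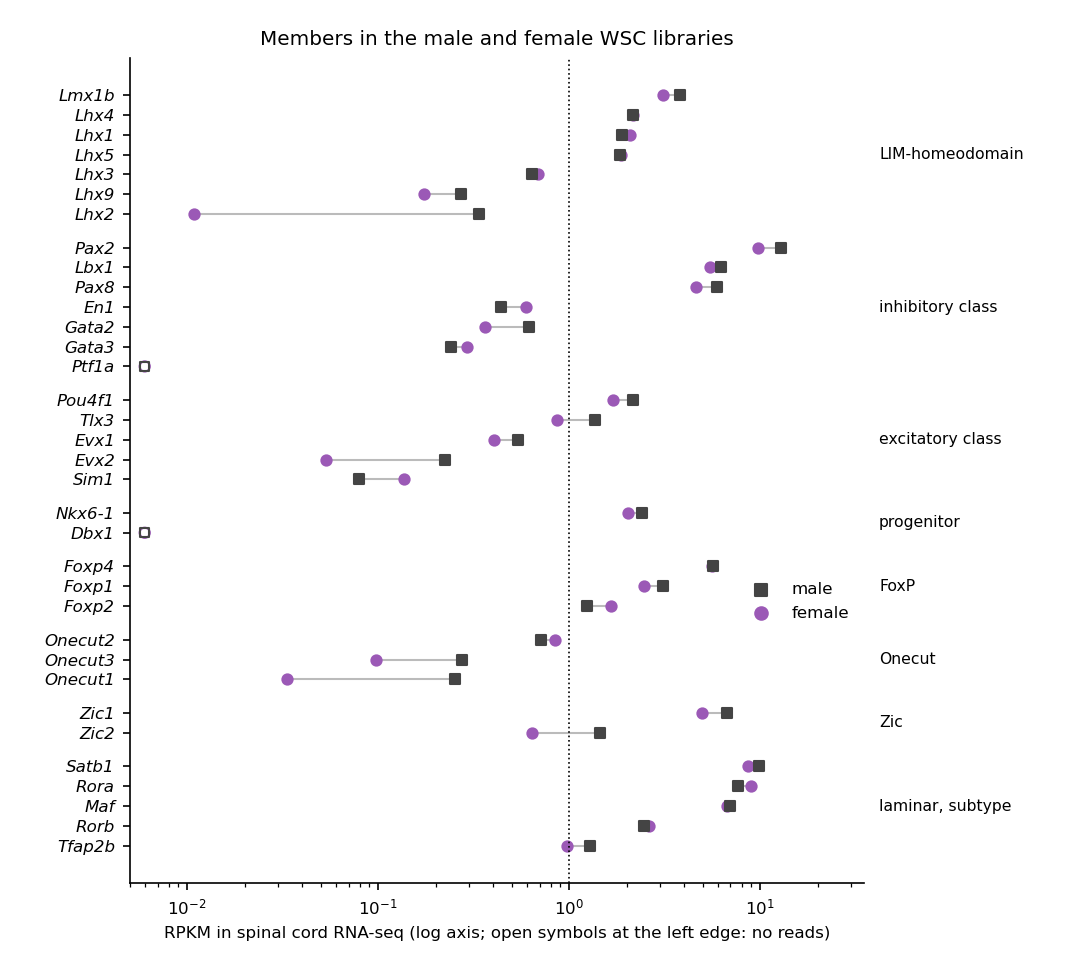
RPKM of each factor in the male library (squares) and the female library (circles), on a log axis and grouped by role, with a dotted line at 1 RPKM. Pax2 lay highest at 12.8 and 9.80 RPKM, and Ptf1a and Dbx1 had no reads in either library (open symbols at the left edge).

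Among factors of inhibitory classes, Pax2, a paired-box factor of most inhibitory interneurons of the dorsal and ventral cord, measured 12.8 RPKM in the male and 9.80 in the female library (11.3 ± 2.14, SD, n = 2). Lbx1, which separates dorsal classes at birth, measured 6.27 and 5.47 RPKM (5.87 ± 0.567). Pax8, a relative of Pax2 in ventral and dorsal inhibitory neurons, measured 5.96 and 4.64 RPKM (5.30 ± 0.932). These 3 were the only ones above 1 RPKM of the 7 factors grouped here with the inhibitory classes. The level of a factor in this group, such as Lbx1, was not taken as a measure of inhibitory neurons. En1, the mark of V1 neurons, Gata2 and Gata3, both of V2b neurons, had means between 0.268 and 0.519 RPKM. Ptf1a, which acts in progenitors of dorsal inhibitory neurons, had 0 reads in both libraries, where the limit that a count of 0 allows was 3 reads in each.

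The laminar and subtype factors of the postnatal cord were all 5 above 1 RPKM. Satb1, a chromatin organizer, measured 9.88 and 8.60 RPKM in the male and female library (9.24 ± 0.906, n = 2). Rora, a nuclear receptor of dorsal horn neurons, measured 7.71 and 8.95 RPKM (8.33 ± 0.883), and Maf, a leucine-zipper factor of deep dorsal horn neurons, 6.94 and 6.72 RPKM (6.83 ± 0.151). Rora was thus higher in the female library and Satb1 in the male library, with a difference of less than 1.5-fold in each. Rorb had a mean of 2.54 RPKM and Tfap2b one of 1.13 RPKM.

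Of the other groups, the FoxP factors were above 1 RPKM in all 3 cases. Foxp4 measured 5.65 and 5.60 RPKM (5.63 ± 0.0381), Foxp1, a factor of limb motoneurons and of ventral interneurons, 3.12 and 2.46 RPKM (2.79 ± 0.470), and Foxp2, found in V1 neurons, had a mean of 1.45 RPKM. Zic1, a zinc-finger factor of the dorsal neural tube, measured 6.72 and 4.96 RPKM (5.84 ± 1.25). Lmx1b, a LIM-homeodomain factor of dorsal excitatory neurons, measured 3.82 and 3.10 RPKM (3.46 ± 0.508). Lhx4, Lhx1 and Lhx5 had means between 1.86 and 2.16 RPKM, and Lhx3, Lhx9 and Lhx2 were below 1 RPKM. Pou4f1 and Tlx3, both of dorsal excitatory neurons, had means of 1.94 and 1.11 RPKM, while Evx1, Evx2 and Sim1, which mark ventral V0 and V3 classes, had means between 0.108 and 0.472 RPKM. Nkx6-1, a ventral progenitor factor, had a mean of 2.22 RPKM, and Dbx1, a factor of V0 progenitors, had 0 reads. None of the 3 Onecut factors reached 1 RPKM.

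Between the libraries, 7 of the 32 factors with at least 20 reads in both libraries together were at least 1.5-fold higher in the male library on the scale of RPKM + 0.1 and 0 were that much higher in the female library. Among all genes with that many reads, 4.88% were higher in the male library by this fold and 3.38% in the female library, or 8.27% in either. The share of genes past 1.5-fold depended on the number of reads, with 38.8% of genes from 20 to under 100 reads, 26.9% from 100 to under 300, 15% from 300 to under 1000 and 1.54% at 1000 or more. The factors past this fold numbered 3 of 3, 3 of 9, 1 of 7 and 0 of 13 in these classes. The median of the log2 ratio of female to male was -0.27 over the factors and -0.01 over all genes with at least 20 reads. The ratio of unadjusted RPKM values passed 1.5-fold for 9 factors, 8 of them higher in the male library. With 1 library of each sex this compares 2 libraries and not the sexes, and no test was made.

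Zic2, a relative of Zic1, had the most reads of these 9, with 310 male and 125 female reads, or 1.45 and 0.642 RPKM. Its RPKM was 2.26-fold higher in the male library (95% exact interval 1.83 to 2.80, for counting error only). Gata2 had 149 and 80 reads (0.618 and 0.364 RPKM). Neither library stood at 0 for these factors. Tlx3 had 86 and 50 reads (1.36 and 0.868 RPKM), and Lhx9, a factor of dorsal commissural neurons, had 115 and 67 (0.273 and 0.175 RPKM). Onecut3 had 93 and 30 reads (0.275 and 0.0975 RPKM). The remaining factors of this kind rested on few reads in at least 1 library. Lhx2 had 68 male reads and 2 female reads (0.336 and 0.0108 RPKM), a ratio of 31.0 with a 95% exact interval from 8.25 to 261. Onecut1 had 33 and 4 reads (0.251 and 0.0334 RPKM) and Evx2 23 and 5 (0.224 and 0.0533 RPKM). Sim1 was the single factor of the 9 that was higher in the female library, with 42 reads in the male and 66 in the female library (0.0793 and 0.137 RPKM).

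Cassette exons, internal exons that a transcript includes or skips, were listed for 2 of the 34 factors, Pax2 and Rorb, with 1 exon each. In the whole table, 35.8% of genes had at least 1. Junction reads on the exon of Rorb numbered 0 (male) and 1 (female). The exon of Pax2 is 69 nt long, a multiple of 3, and lies at chr19:44871118-44871186 on the plus strand of mm9. Its sequence is shown because it is the alternative segment that was measured, with the single NOVA tetramer in capitals.
Pax2 cassette exon: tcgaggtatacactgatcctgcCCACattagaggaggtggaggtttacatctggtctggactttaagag

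Inclusion was taken as the mean count of the inclusion junctions, divided by the sum of this mean and the skipping count. For Pax2 the male value was 32.9% (95% Wilson limits 23.3% and 44.2%). The female value was 38.9% (limits 24.8% and 55.1%). The mean was 35.9% ± 4.24 (SD, n = 2), and the intervals of the libraries overlapped. The inclusion junctions did not give the same value. In the male library, 44 reads joined the exon to the one before it, 5 joined it to the one after it and 50 skipped it. In the female library these counts were 17, 11 and 22. From the upstream junction alone the inclusion was 46.8% (37.05% to 56.8%) in the male library and 43.6% (29.3% to 59.02%) in the female library. From the downstream junction alone it was 9.09% (3.95% to 19.6%) and 33.3% (19.75% to 50.4%), so the intervals of the upstream and downstream junction were apart in the male library and overlapped in the female library. The exon body held 2 male reads and 0 female reads. Per the methods, the reads were longer than the exon, so this count says little about inclusion. No CLIP tag lay on the exon or within 500 nt of it in MNs or in WSC, while 4 tags in MNs and 61 in WSC lay between the exons that flank it.

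In CLIP, 3038 tags in MNs and 22721 tags in WSC fell on the 34 factors, and Rora alone held 76.1% and 61.3% of them. Of the 34, 20 had at least 1 tag in MNs and 32 in WSC, and Dbx1 and Ptf1a had none in either. WSC libraries together were 9.06 times as deep as MN libraries, so the limit that a count of 0 allows (3 tags over the group) was 2.16 CPM in MNs and 0.239 in WSC.

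Enough tags for the test across all genes, which kept 4029 genes by a minimum count, were found for 7 factors. In edgeR's quasi-likelihood test with an adjusted p of at most 0.01, Rora and Foxp1 were higher in MNs and Pax2 and Foxp2 were lower, and Satb1, Onecut2 and Rorb did not pass. Among all genes tested, 28.2% were higher and 28.8% were lower, so the count of factors in each direction (2 of 7) was near the background. The median log2 difference was -0.17 over the 7 factors and -0.02 over all genes tested.

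**Figure D2:**
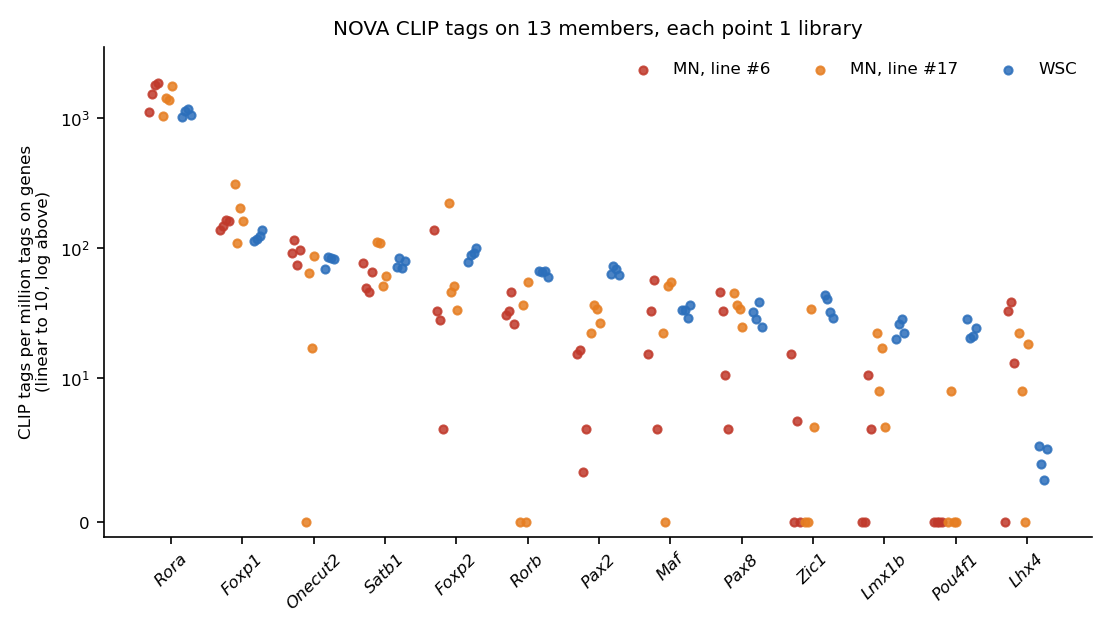
CLIP CPM for 13 factors, 1 point per library (MN line #6, MN line #17 and WSC, 4 libraries each), on an axis that is linear up to 10 and logarithmic above. Pax2 ranged from 3.51 to 36.5 in MNs and from 61.7 to 72.6 in WSC, with no overlap, while Rora lay above 1000 in every library.

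Pax2 had between 3.51 and 36.5 CPM in the 8 MN libraries (median 19.3) and 62.5, 72.6, 68.7 and 61.7 in the 4 WSC libraries. All MN libraries were below all WSC libraries, although 5 of the 8 held a single Pax2 tag. The log2 difference was -1.71 ± 0.27 (SE), 3.26-fold lower in MNs (adjusted p = 1.98e-06). Pax2 met the count filter only through its WSC libraries, so the filter itself favoured a lower value in MNs. It dropped out of the test when any WSC library was left out. Without the filter Pax2 was at -1.87 ± 0.27 (edgeR adjusted p = 1.17e-10). Beside it, the inhibitory markers Slc32a1 and Gad1 were lower by -4.19 ± 0.30 and -2.91 ± 0.21 on the log2 scale. Pax2 passed in 20 of the 21 alternatives that gave it a value, and not with every read copy counted (-1.87, adjusted p = 0.402). The estimate was -3.15 with line #6 alone, -1.14 with line #17 alone and -2.16 as the mean of both lines. The value of line #6 rested on 1 Pax2 tag per library. Compared directly without a count filter, the lines did not differ past the threshold (edgeR adjusted p = 0.888).

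Foxp2 had between 6.46 and 223 CPM in MN libraries (median 39.3) and 78.4, 88.6, 90.7 and 98.9 in WSC libraries. The groups overlapped, because replicate 1 of line #17 (223, from 10 tags) and replicate 1 of line #6 (137, from 9 tags) lay above all WSC libraries while the other 6 lay below. The log2 difference was -0.98 ± 0.27, 1.97-fold lower in MNs (adjusted p = 0.00253). With long 5′ linker libraries only, which left out both of these high replicates, Foxp2 was at -1.52 (edgeR adjusted p = 4.99e-07). It did not pass in DESeq2 (-0.48, adjusted p = 0.499), in line #17 alone, or without replicate 3 (-0.85, adjusted p = 0.0154) or 4 (-0.80, 0.0104) of line #6 or replicate 4 of line #17 (-0.75, 0.0526), and was 1.21 above WSC with every read copy counted (adjusted p = 0.851).

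Rora had between 1024 and 1840 CPM in MN libraries (median 1474) and 1009, 1130, 1169 and 1046 in WSC libraries. Replicate 1 of each line lay within the range of WSC and the other 6 MN libraries above it. The log2 difference was 0.59 ± 0.12, 1.503-fold higher in MNs (adjusted p = 5.80e-05). Foxp1 had between 109 and 312 CPM in MNs (median 161) and 112, 116, 124 and 137 in WSC, with overlap in replicate 2 of line #17, which lay below all WSC libraries. Its log2 difference was 0.51 ± 0.14, 1.42-fold higher (adjusted p = 0.00217). With 1 tag per position, an alternative chosen after seeing the data, neither passed (Rora 0.37, adjusted p = 0.0121, and Foxp1 0.23, adjusted p = 0.139). Foxp1 also did not pass with library totals only (0.41, adjusted p = 0.0110), without a count filter (0.33, 0.0743), in line #6 alone (0.46, 0.0340), in line #17 alone (0.55, 0.0115), with exons only (0.53, 0.0605) or with a replicate block (0.48, 0.0172). With exons only Rora was at 1.32 (adjusted p = 6.23e-09), and with no filter and a replicate block it did not pass (0.30, 0.0536).

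Of the tested factors that did not pass, Satb1 had between 45.6 and 111 CPM in MNs (median 62.8) and 71.4, 83.0, 70.0 and 79.4 in WSC (log2 difference -0.17 ± 0.18, adjusted p = 0.418). Onecut2, a factor of motoneurons and other early-born neurons, had between 0 and 115 in MNs and between 68.98 and 85.2 in WSC (0.04 ± 0.19, adjusted p = 0.863). Rorb had between 0 and 54.4 in MNs and between 59.8 and 66.3 in WSC, without overlap (-0.57 ± 0.22, adjusted p = 0.0203). Like Pax2, it met the count filter only through its WSC libraries. Rorb was lower past the threshold without a count filter (-0.74, adjusted p = 0.00398), with library totals only (-0.67, 0.00757) and with 1 tag per position (-0.92, 0.000503).

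**Figure D3:**
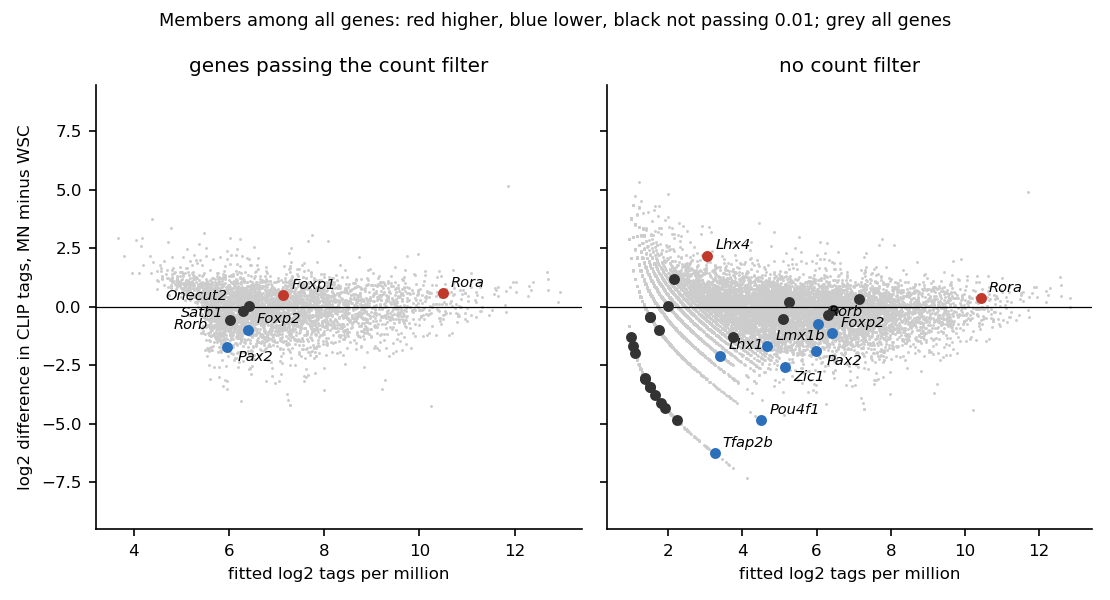
Log2 difference in CLIP tags between MNs and WSC against the fitted log2 CPM, for genes that passed the count filter (left, 4029) and for all genes with at least 1 tag (right, 13852). Factors are red where higher in MNs, blue where lower and black where they did not pass 0.01. Fitted values of factors with 0 tags in MNs, such as Tfap2b, depend on the prior count.

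Most factors had too few tags for the count filter, and 32 of them were tested when it was left out. Of these, 2 were higher in MNs (8.09% of all 13852 genes were) and 8 were lower (15.8% of all genes), and 22 did not pass. The median log2 difference was -1.50 over the factors and -0.25 over all genes. This alternative was planned, but the factors named from it in the next 2 paragraphs were chosen after their values were seen, apart from Zic1 and Lmx1b.

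Pou4f1, of dorsal excitatory neurons, had 281 tags in WSC and 1 in MNs. Its WSC libraries had 28.2, 20.1, 20.8 and 23.9 CPM, while replicate 2 of line #17 had 9.11 and the other 7 MN libraries had 0. The ratio of the pooled levels, MN to WSC, was 0.0322 with a 95% exact interval from 0.000813 to 0.181 (edgeR adjusted p = 2.40e-10). Zic1 had 43.3, 40.1, 32.3 and 29.0 CPM in WSC and between 0 and 33.95 in MNs (median 3.30, log2 difference -2.56 ± 0.40, adjusted p = 1.84e-09). The groups overlapped in 1 MN library, replicate 3 of line #17, with 2 Zic1 tags. Lmx1b had 20.001, 25.7, 28.1 and 22.0 in WSC and between 0 and 22.3 in MNs (median 7.86, log2 difference -1.70 ± 0.40, adjusted p = 0.000147). It did not pass with line #6 alone (adjusted p = 0.0206) or line #17 alone (0.02135). Lhx1, a LIM-homeodomain factor of inhibitory classes, had 113 tags in WSC and 3 in MNs, a pooled ratio of 0.241 with an interval from 0.0489 to 0.721 (edgeR adjusted p = 0.00665). It passed in 1 of 4 alternatives, and not with long linker libraries (adjusted p = 0.0468), a replicate block (0.0111) or every read copy (0.687). Tfap2b, a dorsal horn factor, had 103 tags in WSC and 0 in MNs, at least 3.79-fold lower in MNs against the limit of 3 tags over the group, and Lhx9, with 38 and 0 tags, was at least 1.40-fold lower but did not pass (adjusted p = 0.0157). With every read copy counted, Pou4f1 (edgeR adjusted p = 0.0520), Zic1 (0.902), Lmx1b (0.648) and Tfap2b (0.0221) did not pass. Of all genes tested that way, 0.03% were lower.

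Lhx4, a LIM-homeodomain factor of early motoneurons and ventral interneurons, had the highest log2 difference of the 32 factors tested without a count filter. It had 5.31, 4.06, 2.94 and 5.04 CPM in WSC and between 0 and 38.6 in MNs (median 15.5), with 28 tags in 6 of the 8 MN libraries and 51 in WSC. The groups overlapped, since replicate 1 of line #6 and replicate 3 of line #17 had 0. The log2 difference was 2.19 ± 0.39 (edgeR adjusted p = 1.84e-07), and Lhx4 passed in 3 of 4 alternatives, all but that with every read copy counted (1.54, adjusted p = 0.924). The 28 MN tags began at 27 separate places when starts within 5 nt in a library were joined. In WSC RNA-seq, the level of Lhx4 was 2.16 RPKM (male) and 2.17 (female).

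For the other highly expressed factors, the tags in MNs did not separate them from WSC. Maf had between 0 and 56.1 CPM in MNs (median 27.5) and 33.5, 33.4, 28.6 and 36.5 in WSC. Pax8 had between 6.46 and 45.7 in MNs (median 33.4) and 31.8, 28.2, 38.2 and 24.6 in WSC. Foxp4 had between 0 and 16.4 in MNs (median 4.23) and 13.1, 11.05, 12.2 and 10.7 in WSC (edgeR adjusted p = 0.0357 without a filter). Lbx1, among the 10 highest by RPKM, had 3, 4, 6 and 0 tags in the WSC libraries and none in MNs. At 1.03 CPM in WSC it was below the limit for MNs, so a difference was not detectable at this depth, as for En1, Evx1, Evx2, Gata3, Nkx6-1, Onecut3, Lhx3, Gata2 and Tlx3, which had between 2 and 25 tags in WSC and 0 in MNs.

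Between line #6 and line #17, 0 of 1819 genes passed (0% of all genes) in edgeR, where 63 genes had an unadjusted p under 0.05, and 0 in DESeq2. Of the 34 factors, 2 were tested with the count filter and 20 without it, and none of these passed. Rora and Foxp1, tested with the filter, were at 0.12 ± 0.17 and -0.16 ± 0.28 (log2, line #6 minus line #17). Pax2 had 1 tag in each line #6 library, so its 15.2, 16.4, 3.51 and 6.46 CPM there follow library depth. In line #17 it had 1, 4, 2 and 16 tags, or 22.3, 36.5, 33.95 and 26.4 CPM. The difference was -1.90 ± 0.83 without a count filter and did not pass (adjusted p = 0.888).

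Where the tags lay on the transcripts also differed. Over 10 factors with at least 20 tags in each group, the pooled intronic share was higher in MNs for all 10, with medians of 71.5% in MNs and 47.0% in WSC. Over the 5838 genes with that many tags it was higher in MNs for 92.1%, with medians of 64.3% and 34.9%, so the factors followed the direction of most genes. Pax2 had 74.1% of its 27 MN tags in introns (95% Wilson interval 55.3% to 86.8%) and 31.1% of its 854 WSC tags. Foxp1 had 68.4% (62.1% to 74.2%) and 46.8%, and Foxp2 81.0% (69.1% to 89.1%) and 53.8%. For Rora the shares were close, 78.6% (76.9% to 80.2%) in MNs and 77.1% in WSC, with ranges over libraries from 74.7% to 87.7% and from 75.3% to 78.5%. Over all 34 factors the share was between 70.3% and 78.5% in MN libraries and between 57.1% and 62.8% in WSC libraries, and without Rora it was between 50.0% and 71.7% and between 29.7% and 36.5%.

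**Figure D4:**
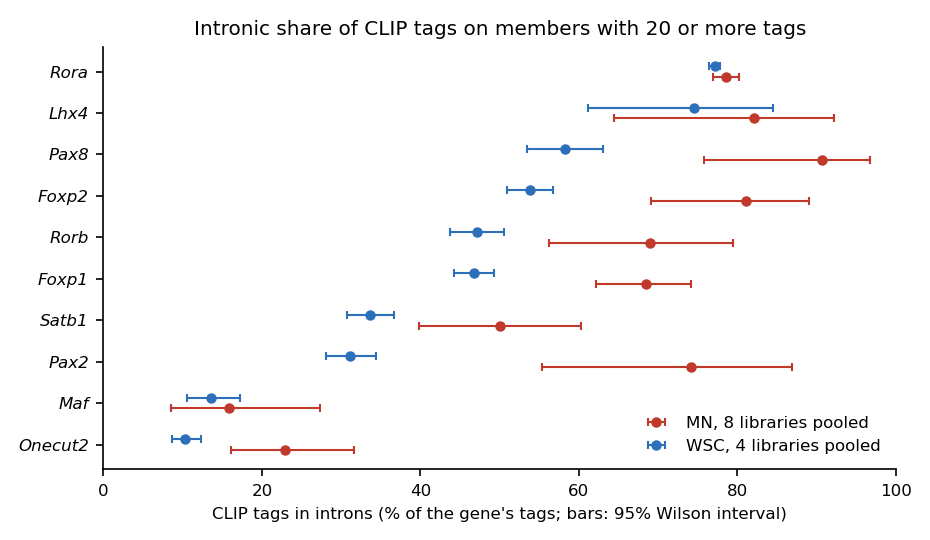
Share of CLIP tags in introns for the 10 factors with at least 20 tags in MNs and in WSC, libraries pooled, with 95% Wilson intervals that cover counting error only. The MN value was higher for each factor, by the most for Pax2 (74.1% against 31.1%) and by little for Rora and Maf.

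On Pax2, WSC tags were concentrated at the end of the gene, where the kilobase from 81 to 82 kb past the start held 352 of 854 tags and the 2 before it 51 and 135. In MNs that kilobase held 5 of 27 tags and the 2 before it none. A bin in intron 3, 21 to 22 kb from the start, held 7 tags in MNs and 59 in WSC.

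**Figure D5:**
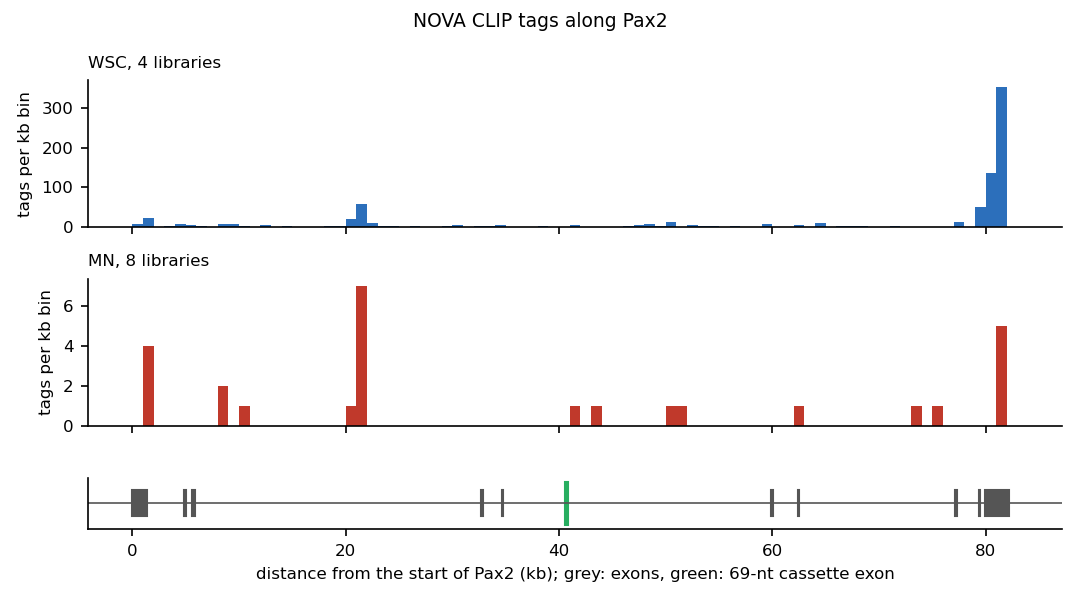
CLIP tags along Pax2 in bins of 1 kb from the start of the gene, with 4 WSC libraries pooled above and 8 MN libraries pooled below, exons in grey and the cassette exon in green. The vertical axes differ in scale; WSC peaked at 352 tags in the bin at 81 kb and MNs at 7 tags in the bin at 21 kb.

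The place of highest tag coverage was read as a 30-nt window on the strand of the gene in mm9. The tetramers searched were TCAT, the form of it that ends in C (written TCAC), the form that begins with C (written CCAT) and the form with both changes (written CCAC). Of the 11 factors with at least 10 tags in MNs, 10 held at least 1 NOVA tetramer on that strand (90.9%), and of 29 such factors in WSC, 24 did (82.8%). Among all genes with at least 10 tags the shares were 74.8% in MNs (7399 genes) and 87.0% in WSC (10982 genes). Of the windows 500 nt upstream, 36.6% and 37.1% held one over all these genes. Upstream windows of the factors held one for 6 of 11 in MNs and for 9 of 29 in WSC. The sites are shown for the 4 factors that passed and for Lhx4 and Pou4f1, with the tetramers in capitals.
Rora, MN and WSC, chr9:69233085-69233114, plus strand, 3′ UTR: tcTCATTCATtgtgacttgtgtgtaggagt
Foxp1, MN, chr6:98890887-98890916, minus strand, intron 15: gtagtatgacattTCACccaagagcagtgc
Foxp1, WSC, chr6:98895556-98895585, minus strand, coding exon: acggtgggacctatccgcaggcggtactca
Pax2, MN, chr19:44852098-44852127, plus strand, intron 3: tcagcaTCATcTCACcaaggagacacCCAT
Pax2, WSC, chr19:44911939-44911968, plus strand, 3′ UTR: acatggtcccgtggacacctctcgcctgtt
Foxp2, MN, chr6:15391891-15391920, plus strand, 3′ UTR: aaaaaaatgtatatgaaaCCATtTCATtca
Foxp2, WSC, chr6:15391906-15391935, plus strand, 3′ UTR: aaaCCATtTCATtcagttggttacatttct
Lhx4, MN, chr1:157553535-157553564, minus strand, intron 3: ttgttgttgttgttTCATgatttggaagtt
Pou4f1, WSC, chr14:104862888-104862917, minus strand, 3′ UTR: gaaatgtcTCACtgactgatcctcctgtcc

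Rora had the same site of highest coverage in both groups, in its 3′ UTR, with 54 tags from 7 of 8 MN libraries and 318 from all 4 WSC libraries. This was 2.34% of its tags in MNs and 2.28% in WSC. Foxp2 had sites 15 nt apart in its 3′ UTR, with 5 tags from 2 libraries in MNs and 49 tags in WSC. For Foxp1 the sites differed, with 12 tags from 5 libraries in intron 15 in MNs and 96 tags on a coding exon without a tetramer in WSC. The intron 3 site of Pax2 in MNs rested on 3 tags from 2 libraries and held 3 tetramers, and its WSC site in the 3′ UTR had 95 tags and no tetramer. The Pou4f1 site held 99 of its 281 WSC tags (35.2%), and the Lhx4 site in MNs had 3 tags from 1 library.

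Other factors of the same pathways were listed apart from the 34. Of 41 other transcription factors of spinal neurons, 40 had RNA values and 28 reached 1 RPKM, and 11 passed the CLIP count filter. Of these 11, 4 were higher in MNs, Nfib (1.33 ± 0.13, log2), Nfia (1.14 ± 0.11), Zfpm2 (0.97 ± 0.09) and Esrrg (0.34 ± 0.09), and 4 were lower, Zfhx4 (-2.10 ± 0.15), Ebf3 (-1.43 ± 0.18), Zfhx3 (-1.42 ± 0.16) and Ebf1 (-0.41 ± 0.13), by edgeR at 0.01. Over all genes tested, 28.2% were higher and 28.8% lower, so these counts were near the background. The median was -0.40. Of 10 cofactors of LIM-homeodomain proteins, 4 were tested, of which Ssbp2 was higher (0.43 ± 0.09) and Lmo3 lower (-1.38 ± 0.28), with a median of -0.39. Ldb1, the adaptor that joins LIM-homeodomain proteins into complexes, had 17.8 and 13.7 RPKM but 4 tags in MNs and 41 in WSC.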

How the data were processed

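Per the labels and the methods, CLIP reads were aligned by the authors with Novoalign (submitters' processing notes; mm9, with mm10 also named for 1 library), and the RNA-seq reads with OLego, and only unambiguous reads were kept. The deposited CLIP files list unique reads with positions and a score, which was not used for the main counts. The deposited RNA-seq tables hold read counts and the RPKM that the authors computed, and counts of junction reads for cassette exons. The authors' columns of isoform counts entered only as an alternative.

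Here, tags were counted on gene bodies (GENCODE vM1, NCBIM37, the mm9 build), on the same strand, by their midpoint. Of 19215 genes, 17212 (89.6%) were placed by symbol, and tags on several genes were left out. Genes were filtered with filterByExpr, scaled by TMM and tested with edgeR 4.0.16 (quasi-likelihood, two-sided, Benjamini-Hochberg over all genes tested, adjusted p of at most 0.01, R 4.3.3). An SE is the log2 difference over the square root of F. DESeq2 1.42.0 was an alternative. On simulated counts of 4025 genes for MN against WSC, 20.0% of genes with a log2 fold of -1, 75.0% at -2, 70.0% at -3, 22.5% at 1 and 100% at 2 were called, and 0.0519% of unchanged genes. The simulation used the same dispersion for every gene and library and held no effect of line or linker. These rates need not hold for the real libraries. RNA-seq values are descriptions, with log2(RPKM + 0.1) and at least 20 reads for ratios. Whether replicate numbers pair samples was checked: same-numbered libraries of the lines correlated at 0.16, 0.0473, 0.108 and 0.195, and those of MNs and WSC between -0.0637 and 0.0328. Not every pair was over 0.1, so the numbers were not used as pairs. MN replicates are biological per the methods, each a pool of mice, and p-values measure the spread between these libraries. Intervals and limits from counts of 0 (3 counts) cover counting error only.

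Named in full were factors that passed in MN against WSC, the 10 with the highest mean RPKM, those with a 1.5-fold RPKM difference and at least 20 reads, and cassette exons with at least 10 junction reads per library and 5% to 95% inclusion. The members, marker lists and cofactor lists were chosen with earlier results of these data known, and support nothing by themselves. Markers of microglia, endothelium, meninges and dorsal root ganglion had 0 genes in the filtered test. Without a filter, of 4, 2, 5 and 5 genes tested, 0, 1, 0 and 1 were higher in MNs. Alternatives tried are listed in the closing section.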

Additional observations from a re-analysis of the deposited data

Results flagged for a closer look

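In groups of 4 libraries, 3 of 37 groups with at least 20 tags on a factor had a library that stood apart by Dixon's 95% test, where chance gives about 1 in 20 groups (5%). Foxp2 had 222.7 CLIP CPM in replicate 1 of line #17, against 33.0 to 50.9 in the other 3 libraries of the line. This rested on 10 tags, which began at 5 separate places when starts within 5 nt were joined, while the 9 Foxp2 tags in replicate 1 of line #6 began at 9. Sim1 had 3.67 CPM in WSC replicate 1 (9 tags) and 1.58 to 1.89 in the other WSC libraries. Rorb had 59.8 in WSC replicate 4 and 65.6 to 66.3 in the others.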

How the results depend on the processing

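Of 34 factors, Pax2 passed in 20 of 21 alternatives with a value, Rora in 25 of 28, Foxp2 in 20 of 27 and Foxp1 in 17 of 28. Many of the alternatives for Pax2 kept the count filter, which favoured a lower Pax2 value in MNs in the main test. The number of factors higher in MNs was 2 of 7. With 1 tag per position (chosen after seeing the data) it was 0 of 7 (21.4% of all genes). With every read copy counted it was 0 of 19 (0.12%). It was 1 of 3 with exons only (23.9%), 1 of 7 with library totals only (23.8%), 1 of 13 in line #6 alone (13.9%) and 1 of 13 in line #17 alone (14%). The number lower was 2 of 7. It was 1 of 7 with DESeq2 (29.1% of all genes), 0 of 19 with every read copy (0.03%) and 0 of 3 with exons only (25.5%). It was 4 of 13 tested in line #6 alone (16.1%), 5 of 13 with long 5′ linker libraries only (21%) and 8 of 32 without a count filter (15.8%). Among all genes, 12 were higher and 3 lower with every read copy, 479 and 510 with exons only (fewer genes were tested), and 2183 were lower without a filter. With every read copy Foxp2 was 1.21 above WSC on the log2 scale. Leaving out the filter together with a second choice, added after seeing the data, gave 7 of 32 factors and 1950 genes (14.1%) lower with library totals. With long linker libraries it gave 6 of 32 factors and 1866 genes (13.6%) lower. The cause of these changes was not tested.

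Leaving out 1 library gave 0 to 2 factors lower. It was 0 without replicate 4 of line #17 or replicate 3 of line #6, and 1 without any 1 WSC replicate or without replicate 4 of line #6, while 2 were higher in each case. Genes higher ranged from 859 to 1248 (26.1% to 28.3% of genes tested) and genes lower from 813 to 1259 (25.2% to 28.3%). These fits tested between 5 and 9 of the factors. Foxp2 and Pax2 are the factors touched by leaving out 1 library. Pax2 passed in 6 of the 6 such fits in which it met the count filter, and was not tested in the rest. In the main test it met this filter only through its WSC libraries, which favoured a lower value in MNs, so these 6 fits add no support.

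The replicate numbers did not meet the rule for pairs, although all 4 same-numbered pairs between the lines correlated above 0. With the replicate number as a block, 1 of 7 factors was higher and 1 lower, with 928 genes higher (23%) and 980 lower (24.3%). Foxp1 (0.48, edgeR adjusted p = 0.0172) and Foxp2 (-0.87, adjusted p = 0.0220) no longer passed. With the block and no count filter, 1 of 32 factors was higher (5.54% of all genes). In that fit 6 of 32 were lower, with 1810 genes lower (13.1%). Between the lines 0 genes passed in each of the 13 alternatives.

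In RNA-seq, 13 factors reached 2 RPKM. With a pseudocount of 1, 0 factors were 1.5-fold higher in the male library, and with no pseudocount or TMM-scaled reads 1 (Sim1) was higher in the female library. Pax2 exon inclusion was 53.25% with the authors' isoform counts. The mean intronic share over MN libraries was 68.8% with every read copy and 56.6% without Rora, and that over WSC libraries 33.6% without Rora. Of the 34 factors, 23 had under 10 MN tags, which limits what MN CLIP can show for them.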

Other observations

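Sim1, the mark of V3 neurons, had 7 tags in MNs and 26 in WSC, a pooled ratio of 2.44 with a 95% exact interval from 0.894 to 5.77. The site of highest coverage in MNs, on a coding exon at chr10:50701358-50701387, held 4 of the 7 tags, from 3 libraries, and 1 WSC tag. Of the 4, 2 came from replicate 2 of line #17, whose label gives only a short 5′ barcode. Over 16 bases it matched the 5′ linker named in the labels at 14, the most of all sites of the factors, among which the next matched 10. It held no tetramer, and the part of linker sequence in these tags was not tested.
Sim1, MN, plus strand: gcgagggaggacggtgcgaggcaggcaggt

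Among the other transcription factors tested without a count filter, Tal1, of V2b neurons, had 49 tags in WSC and 0 in MNs (edgeR adjusted p = 0.00489). Isl1, a factor of motoneurons, had 36 tags in WSC and 14 in MNs (log2 difference 1.72 ± 0.50, adjusted p = 0.00319). Both were chosen after their values were seen.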
